A study of Mus musculus with 24 samples.

Results

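The acute-phase and lipocalin genes described here are 8 genes chosen by name, of 55291 gene names counted in mouse pulmonary fibroblasts. They are the serum amyloid A genes Saa1, Saa2 and Saa3, the lipocalin Lcn2, haptoglobin (Hp), the lipopolysaccharide-binding protein Lbp, and the serine protease inhibitors Serpina3g and Serpina3n. These genes and the gene lists used below were chosen with earlier results of these data known. Their counts beside the share of all tested genes are therefore a description. The study asked whether extracellular CIRP, a cold-inducible RNA-binding protein that acts as a danger signal once outside cells, makes pulmonary fibroblasts inflammatory through the receptor TLR4, and whether TGF-β1 alters this. In 24 RNA-Seq libraries, cells isolated from wild type (WT) C57BL/6 mice and from TLR4-/- mice on the same background were compared after 24 h with PBS, with 1 μg/mL recombinant mouse CIRP (rmCIRP), with 2 ng/mL rmTGF-β1, or with both, in 3 libraries per condition. Mice were 4 to 8 weeks old. Lungs were pooled (3 to 4 for each group of cells), and the cells were used between passages 3 and 6 after a night in Opti-MEM, a medium with little serum. Nothing in the labels says that the 3 libraries of a condition came from separate isolations, so the p-values measure the spread between these libraries, which may be technical.

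The acute-phase response is the change in secreted proteins that follows infection or tissue injury, best known in the liver, where interleukin-6, interleukin-1 and TNF act through STAT3, C/EBP factors and NF-κB. Many of the same genes are also transcribed outside the liver, where their products act close to the cells that make them. Serum amyloid A proteins associate with lipoproteins and attract leukocytes, and Saa3 is the mouse member made mainly outside the liver. Lcn2 binds bacterial siderophores and so withholds iron, Hp binds free haemoglobin, and Lbp passes lipopolysaccharide to CD14 and TLR4. Serpina3n is a secreted inhibitor of serine proteases, whereas Serpina3g acts inside cells and inhibits cathepsins.

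Reads assigned to genes ranged from 29853346 to 39664606 per library (median 33585047), and 16258 of the 34285 genes with a read passed the filter on low counts and were tested. A gene is called changed at an adjusted p under 0.1, and normalized counts are counts scaled for library depth. The label TLR4-/- was checked on Tlr4 itself, which had 759 ± 41.9 (SD, n = 3) normalized counts in WT cells with PBS and 903 ± 20.2 (SD, n = 3) in those labelled TLR4-/- (log2 fold change 0.25, SE 0.06, adjusted p = 0.00123, edgeR quasi-likelihood test). Tlr4 mRNA was therefore not lower under that label, and whether the counted exons lie in the deleted part was not tested, so these cells are called "labelled TLR4-/-" throughout. All 10 fibroblast markers were present, with summed normalized counts of 807075 to 866295 in WT and 766366 to 859171 in labelled TLR4-/- libraries with PBS. Summed over 15 macrophage markers, the same libraries had 92907 to 101293 and 352426 to 403080 normalized counts. The cells labelled fibroblasts thus also held macrophage transcripts, and more of them under the TLR4-/- label. Labelled TLR4-/- library 3 with both proteins stood apart from its replicates over all genes, with a chi-square per degree of freedom of 34.6 and 50.6 against the other 2, where the other 22 pairs of replicates had 2.67 to 17.2. Leaving it out, a check added after seeing the data, changed no call of the genes described here in any of the 12 comparisons. The next highest pairs, at 13.1 and 17.2, were those of labelled TLR4-/- library 3 with rmTGF-β1 alone. Without that library, no gene described here was called in the comparisons that use it, as with all libraries. In bulk RNA, fewer cells of a type and less RNA per cell cannot be told apart.

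Saa3 was by far the most abundant of the 8 genes in these cells, and the liver-type genes Saa1 and Saa2 were close to silent. Saa3 took 87.5% of all reads on the 8 genes. Per kilobase of exon, WT libraries with PBS had 6021 normalized counts of Saa3, 1355 of Serpina3n, 455 of Hp, 89.7 of Lcn2, 55.6 of Lbp and 43.1 of Serpina3g. Saa1 had 25 reads and Saa2 6 reads over all 24 libraries. No library held more than 8 reads of Saa1 or more than 2 of Saa2. Reads of Saa1 were found in 8 of 12 WT libraries and 2 of 12 labelled TLR4-/- libraries, and those of Saa2 in 4 and 1. A library with 0 reads of a gene allows up to 3. Both genes failed the filter on low counts, which left 6 of the 8 genes with a test. In WT cells Saa1 had 1, 0 and 0 reads with rmTGF-β1 and 8, 3 and 1 with both proteins, a difference that was called only in the fit without that filter, and no direction is read from so few reads. Saa1 and Saa2 also share sequence, with 31.1% of the 50-base stretches of Saa1 exons found in Saa2. Reads with no unique alignment were tallied apart from the genes, so both genes may be undercounted. Only 0.346% of such stretches of Saa3 occurred in another of these genes or their relatives, against 15% for Serpina3g and 6.75% for Serpina3n.

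The sequences just upstream of 4 of the genes are shown because 2 of them, Saa3 and Lcn2, moved together in the results that follow, Saa1 is the near-silent relative of Saa3, and Serpina3g was the other gene that rose when both proteins were given. They are the 250 bases before the RefSeq start of each gene (GRCm38.p6), written on the strand of the gene, with matches to 4 motifs of acute-phase factors in capitals. The intervals are chr7:46715677-46715926 (minus strand) for Saa3, chr2:32387740-32387989 (minus) for Lcn2, chr7:46742981-46743230 (minus) for Saa1 and chr12:104235897-104236146 (plus) for Serpina3g.
Saa3: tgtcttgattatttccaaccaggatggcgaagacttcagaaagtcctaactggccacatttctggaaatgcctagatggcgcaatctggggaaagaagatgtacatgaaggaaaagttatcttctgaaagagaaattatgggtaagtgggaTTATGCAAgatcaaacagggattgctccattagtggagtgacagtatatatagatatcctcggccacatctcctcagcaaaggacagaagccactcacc
Lcn2: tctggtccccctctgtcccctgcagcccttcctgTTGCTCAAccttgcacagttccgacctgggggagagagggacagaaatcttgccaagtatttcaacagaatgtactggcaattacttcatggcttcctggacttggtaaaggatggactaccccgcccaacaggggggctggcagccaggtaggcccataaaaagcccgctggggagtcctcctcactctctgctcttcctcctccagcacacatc
Saa1: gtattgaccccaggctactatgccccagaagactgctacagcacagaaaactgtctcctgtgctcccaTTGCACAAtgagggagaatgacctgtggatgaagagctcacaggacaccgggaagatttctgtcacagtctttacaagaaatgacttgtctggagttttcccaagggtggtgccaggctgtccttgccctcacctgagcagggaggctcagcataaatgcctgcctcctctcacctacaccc
Serpina3g: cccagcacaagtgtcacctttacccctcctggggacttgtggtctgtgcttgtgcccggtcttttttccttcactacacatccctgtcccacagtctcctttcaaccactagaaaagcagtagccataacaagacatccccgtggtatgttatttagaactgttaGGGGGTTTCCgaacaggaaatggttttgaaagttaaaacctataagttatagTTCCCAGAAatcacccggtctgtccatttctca

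The capitals in Saa3, Lcn2 and Saa1 mark the C/EBP motif TTGCNNAA, and those in Serpina3g an NF-κB (κB) motif and then the STAT motif TTCNNNGAA. Both strands were searched, and the match in Saa3 reads on the opposite strand. Of the 6 genes with a window, 4 held the C/EBP motif (Saa1, Saa2, Saa3 and Lcn2), against 9.56% of 32851 windows of all genes. It lay 99 to 92 bases upstream of the start in Saa3, 216 to 209 in Lcn2, 182 to 175 in Saa1 and 183 to 176 in Saa2. The κB motif was found in 1 of the 6 (Serpina3g, 85 to 76 bases upstream; 7.25% of all windows) and the STAT motif in 1 (Serpina3g, 33 to 25; 7.02%). The AP-1 motif TGANTCA was in none of the 6 and in 6.75% of all windows. The windows of Saa1 and Saa2 were identical at 79.1% of 249 aligned bases, and those of Saa1 and Saa3 at 29.8% of 245. A motif match is a description of the sequence and says nothing about binding. Hp and Lbp had no window in the table used.

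In WT cells, rmCIRP raised Saa3 and Lcn2 strongly and Lbp slightly, while Hp and both Serpina3 genes did not pass the test. Saa3 had 10412, 21108 and 15552 normalized counts in the 3 WT libraries with PBS and 48550.3, 36507 and 46799.5 with rmCIRP. All 3 treated libraries lay above all 3 controls, with means of 15690.4 ± 5349 (SD, n = 3) and 43952 ± 6507 (SD, n = 3). This was a log2 fold change of 1.48 (SE 0.23), or 2.79-fold (95% interval 2.01 to 3.87), with an adjusted p of 2.19e-05 (edgeR quasi-likelihood test, Benjamini-Hochberg adjusted over all tested genes, as is every adjusted p that follows). Lcn2 had 133, 371 and 202 normalized counts with PBS and 1006, 731 and 978 with rmCIRP. The groups did not overlap here either, and Lcn2 rose by a log2 fold change of 1.94 (SE 0.23), or 3.84-fold (95% interval 2.74 to 5.37; adjusted p = 8.48e-07).

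**Figure D1:**
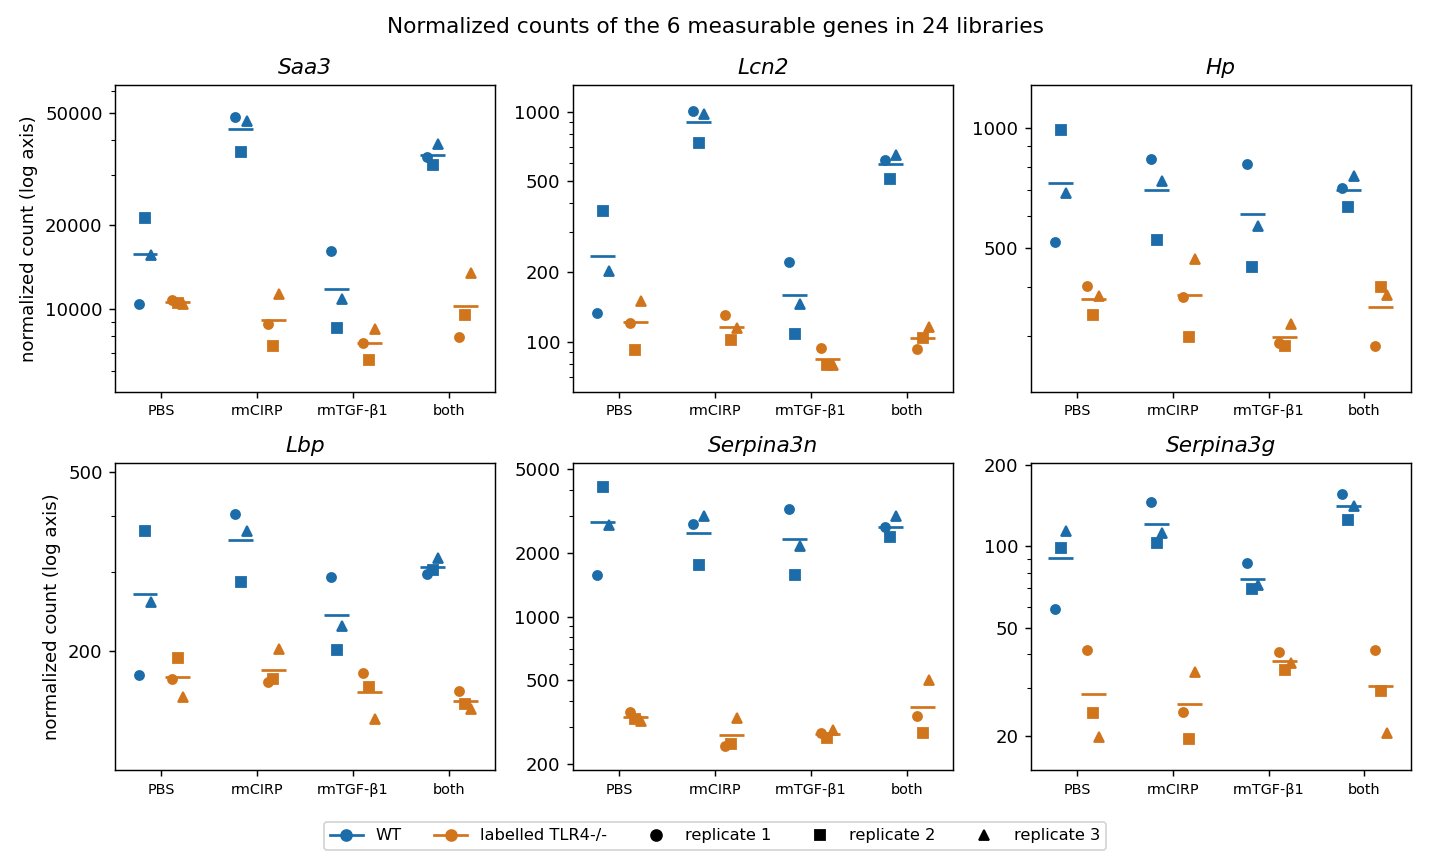
Normalized counts (log axis) of Saa3, Lcn2, Hp, Lbp, Serpina3n and Serpina3g in each of the 24 libraries, by treatment, in WT (blue) and labelled TLR4-/- cells (orange). Symbols are replicates 1 to 3, lines are condition means; Saa3 and Lcn2 are high in the 6 WT libraries with rmCIRP (Saa3 32592 to 48550), and Serpina3n is lower in all 12 labelled TLR4-/- libraries (245 to 502) than in any WT library (1575 to 4098).

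Lbp had 177, 371 and 257 normalized counts with PBS and 403, 285 and 371 with rmCIRP. These groups overlapped. The log2 fold change was 0.39 (SE 0.18), with an adjusted p of 0.086 that lay close to the threshold. The call was lost without WT PBS library 1 (log2 fold change 0.18, adjusted p = 0.424), WT PBS library 3 (0.36, 0.189), WT rmCIRP library 1 (0.28, 0.287) or WT rmCIRP library 3 (0.37, 0.177), and without WT PBS library 2 it was 0.71 (0.00145). Serpina3g had 58.7, 98.8 and 114 normalized counts with PBS and 146, 103 and 113 with rmCIRP (log2 fold change 0.41, SE 0.22, adjusted p = 0.146). Without WT PBS library 3 it passed the test, at 0.61 (adjusted p = 0.0575). Hp and Serpina3n had log2 fold changes of -0.07 (95% interval -0.50 to 0.36) and -0.17 (-0.70 to 0.36), so these data leave room for a modest change either way.

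Of the 6 tested genes, 3 rose with rmCIRP in WT cells, where 19.8% of all tested genes rose, and 0 fell, where 24.1% fell. DESeq2 called the same number. The libraries of the groups did not overlap for 2 of the 6, against 50.8% of all tested genes. The median log2 fold change was 0.40 over the 6 genes and -0.02 over all tested genes. In these libraries the summed fibroblast markers were at 681665 to 726165 normalized counts with rmCIRP, against 807075 to 866295 with PBS, and the macrophage markers at 81080.1 to 86013, against 92907 to 101293. Members of both lists went both ways, with 2 of 10 fibroblast markers higher and 6 lower, and 5 of 15 macrophage markers higher and 10 lower. Lyz2, which carries most of the macrophage sum, had a log2 fold change of -0.33, and Fcgr1 and Marco, named after their values were seen, had 2.26 and 1.78. Their part in the results was not tested.

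Saa3 and Lcn2 also rose with rmCIRP when rmTGF-β1 was present, and so did Serpina3g. With rmTGF-β1 alone, Saa3 had 16128, 8545 and 10888 normalized counts in WT libraries, and with both proteins 35038, 32592 and 38855. The corresponding values of Lcn2 were 223, 108 and 146, and 619, 511 and 646. Neither gene overlapped between the groups, with log2 fold changes of 1.58 (SE 0.23) for Saa3 (adjusted p = 1.14e-05) and 1.90 (SE 0.25) for Lcn2 (adjusted p = 3.34e-06). Serpina3g, the intracellular cathepsin inhibitor, had 86.7, 70.0 and 71.8 normalized counts with rmTGF-β1 and 156, 125 and 141 with both. Its groups were apart as well (log2 fold change 0.89, SE 0.22, adjusted p = 0.00277). For Lbp the groups were apart, at 293, 202 and 228 and 297, 304 and 322, but the change of 0.35 (SE 0.18) missed the threshold (adjusted p = 0.139). It passed without WT rmTGF-β1 library 1 (0.50, adjusted p = 0.0557), in a fit to only the libraries compared (0.36, adjusted p = 0.0128) and without the filter on low counts (0.35, adjusted p = 0.00435). In all, 3 of 6 genes rose, against 20.5% of all tested genes, and 4 of 6 had groups apart, against 50% of all tested genes. No gene of the 6 had an rmCIRP response that differed between cells with and without rmTGF-β1 (edgeR 0 of 6, 0 at an unadjusted p under 0.05, DESeq2 0; 0.0492% of all tested genes). The largest such difference was that of Serpina3g, at 0.48 (SE 0.31) on the log2 scale (95% interval -0.16 to 1.11, adjusted p = 0.939), so its change with both proteins was not shown to exceed that with rmCIRP alone.

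rmTGF-β1 alone left all 6 genes without a call in WT cells. No gene passed the test in edgeR or DESeq2, against 12.4% of all tested genes, and 1, Lcn2, had an unadjusted p under 0.05. The log2 fold changes were all below 0, from -0.57 for Lcn2 (95% interval -1.13 to -0.01, adjusted p = 0.217) and -0.41 for Saa3 (-0.88 to 0.06, 0.303) to -0.16 for Lbp. Lcn2 passed the test without WT PBS library 1 (-0.85, adjusted p = 0.0403) or WT rmTGF-β1 library 1 (-0.88, 0.0755), and Saa3 without the latter (-0.70, 0.0759). In the presence of rmCIRP, rmTGF-β1 lowered Lcn2 from 905 ± 151 (SD, n = 3) to 592 ± 71.6 (SD, n = 3) normalized counts, and the groups did not overlap (log2 fold change -0.62, SE 0.22, adjusted p = 0.0577). It was the 1 gene of 6 called lower, against 10.5% of all tested genes. DESeq2 gave an adjusted p of 0.169. The call was lost without WT rmCIRP library 1 (-0.54, 0.173) or 3 (-0.55, 0.177), and without WT library 1 (-0.64, 0.108) or 2 (-0.52, 0.202) with both proteins. Saa3 with both proteins was at 35495 against 43952 normalized counts with rmCIRP (-0.31, SE 0.22, adjusted p = 0.401).

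**Figure D2:**
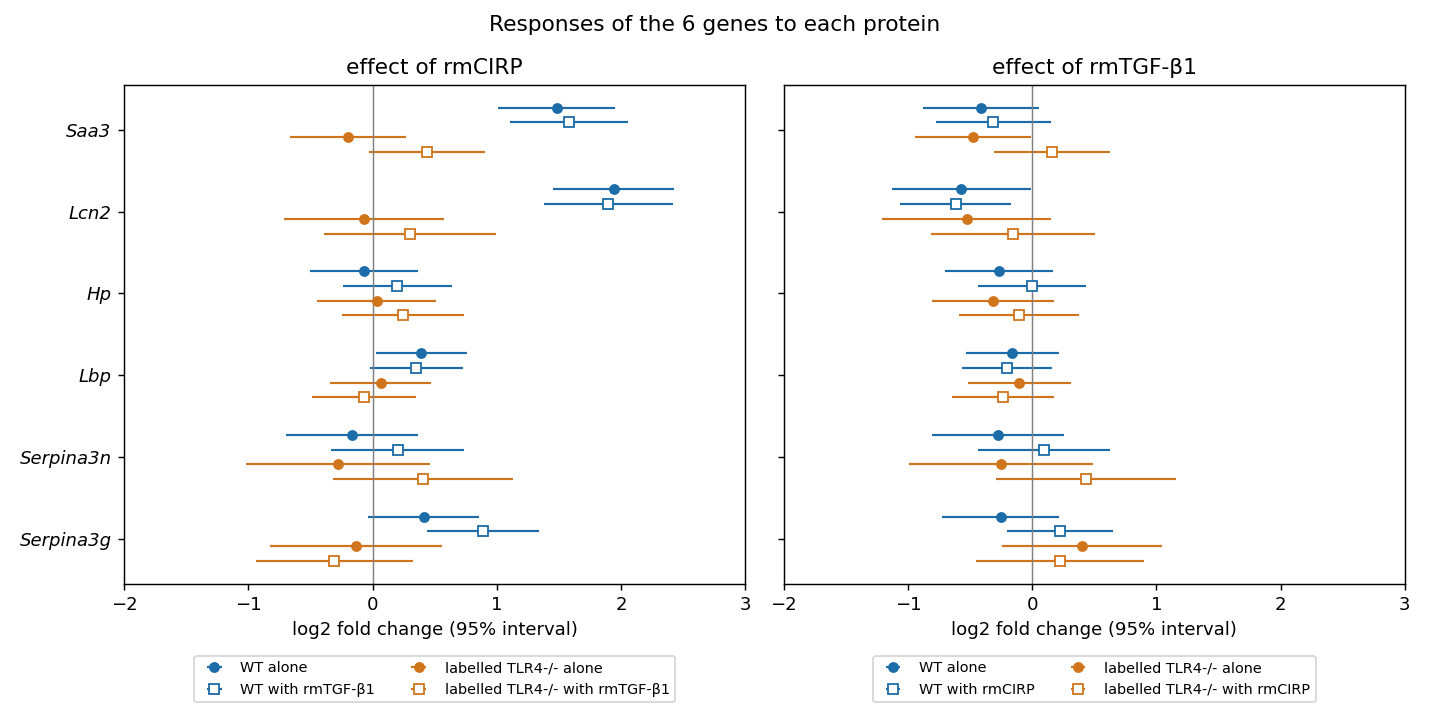
Log2 fold changes (points) with 95% intervals (lines) for the 6 tested genes: left, the effect of rmCIRP alone (filled) or with rmTGF-β1 (open); right, the effect of rmTGF-β1 alone (filled) or with rmCIRP (open), in WT (blue) and labelled TLR4-/- cells (orange). The intervals for Saa3 and Lcn2 lie above 1 for rmCIRP in WT cells, and include 0 for rmCIRP in labelled TLR4-/- cells.

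In cells labelled TLR4-/-, none of the 6 genes was called with rmCIRP. Saa3 had 10829.5, 10494 and 10399 normalized counts with PBS and 8877, 7395 and 11291 with rmCIRP. Lcn2 had 121, 92.2 and 150.3 with PBS and 129.8, 101 and 115 with rmCIRP. The groups overlapped for both, with log2 fold changes of -0.20 (95% interval -0.67 to 0.27, adjusted p = 0.942) and -0.07 (-0.72 to 0.58, 0.993). The upper bounds of both intervals lay below the lower bounds in WT cells. Hp, Lbp, Serpina3g and Serpina3n had log2 fold changes between -0.28 and 0.06. The count was 0 of 6 in edgeR and in DESeq2, with 0 of 6 at an unadjusted p under 0.05, and the share called over all tested genes was also 0%. When rmCIRP was added to rmTGF-β1, Saa3 had 7604, 6607 and 8501 normalized counts with rmTGF-β1 and 7935, 9539 and 13455 with both. These groups overlapped, and the change of 0.44 (SE 0.23) did not pass the test (95% interval -0.03 to 0.91, adjusted p = 0.314). Here too 0 of 6 were called by edgeR and DESeq2 (0 at an unadjusted p under 0.05), against 2.69% of all tested genes. The highest Saa3 value is that of library 3, which stood apart from its replicates. Without it the change of Saa3 was 0.20 (adjusted p = 0.864), 0 of 6 were called, and the share over all tested genes was 0.00606%.

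The difference between the labels in the response to rmCIRP was itself tested. It was -1.68 (SE 0.32) for Saa3 (adjusted p = 0.000478) and -2.01 (SE 0.39) for Lcn2 (adjusted p = 0.000597), on the log2 scale as labelled TLR4-/- minus WT. These 2 of 6 genes differed downwards, against 14.3% of all tested genes, and 0 of 6 upwards, against 17.1%. Both differences passed the test in every fit, also with any 1 library left out. For the other 4 genes the difference did not pass. It was -0.54 for Serpina3g (95% interval -1.37 to 0.28, adjusted p = 0.354) and -0.33 for Lbp (-0.88 to 0.22, 0.402), whose value without WT PBS library 2 was -0.65 (adjusted p = 0.0374). It was 0.10 for Hp and -0.11 for Serpina3n.

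In cells labelled TLR4-/-, mean normalized counts of Saa3 were 10574 ± 226 (SD, n = 3) for PBS, against 7571 ± 947 (SD, n = 3) for rmTGF-β1 alone. The log2 fold change of -0.48 (SE 0.23) did not pass the test (adjusted p = 0.16; 95% interval -0.94 to -0.01). The PBS and rmTGF-β1 libraries did not overlap for Saa3, Hp and Serpina3n, 3 of the 6 genes, against 33.8% of all tested genes. None was called by edgeR or DESeq2, against 23.9% of all tested genes, and 1 (Saa3) had an unadjusted p under 0.05. A fit to only these 6 libraries called 4, namely Saa3, Lcn2, Hp and Serpina3n, all lower. With rmCIRP present, 0 of 6 passed the test for rmTGF-β1 in edgeR and DESeq2 (0 at an unadjusted p under 0.05), against 32.8% of all tested genes. Without library 3 with both proteins that share was 23% and again 0 of 6 passed, and the value of Saa3 went from 0.16 to -0.07. The response to rmTGF-β1 differed between the labels for 0 of 6 in both tools (0 at an unadjusted p under 0.05), against 0.0861% of all tested genes.

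All 6 tested genes were lower in labelled TLR4-/- than in WT cells before any stimulus, most of all Serpina3n. The cells of each label came from their own pooled lungs. In any comparison between the labels, genotype and cell preparation therefore cannot be told apart. With PBS, Serpina3n had 1583, 4098 and 2709 normalized counts in WT libraries and 356, 329.6 and 319.6 in labelled TLR4-/- libraries. The groups were far apart (log2 fold change -3.06, SE 0.30, or 8.36-fold lower, adjusted p = 2.29e-08). Serpina3g had 58.7, 98.8 and 114 against 41.5, 24.4 and 19.9 normalized counts (log2 fold change -1.65, SE 0.27, adjusted p = 3.35e-05). Hp had 517, 987 and 686 against 401, 340.2 and 378 (log2 fold change -0.97, SE 0.22, adjusted p = 0.00116). These 3 genes did not overlap between the labels with PBS, nor with any of the other 3 treatments. Over all treatments, Hp ranged from 448 to 987 normalized counts in the 12 WT libraries and from 283 to 468 in the 12 labelled TLR4-/- libraries. Serpina3g ranged from 58.7 to 156 in WT libraries and from 19.5 to 41.5 in those labelled TLR4-/-.

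Saa3, Lcn2 and Lbp were also called lower with PBS, with log2 fold changes of -0.57 (SE 0.23; adjusted p = 0.047), -0.96 (SE 0.28; 0.00966) and -0.62 (SE 0.19; 0.012), but their libraries overlapped. Each of these calls rested on WT PBS library 2, the highest of its group for all 3 genes. Without it the values were -0.28 (adjusted p = 0.37) for Saa3, -0.45 (0.188) for Lcn2 and -0.29 (0.197) for Lbp, and the call for Saa3 was also lost without labelled TLR4-/- PBS library 3 (-0.54, adjusted p = 0.119). With all libraries, 6 of 6 genes were lower, against 24% of all tested genes, and 0 higher, against 23.2%. The libraries did not overlap for 3 of 6, against 51.7% of all tested genes. With each of the other 3 treatments, the WT libraries of Saa3, Lcn2 and Lbp lay above those labelled TLR4-/-, by little for Saa3 with rmTGF-β1, where the lowest WT library had 8545 normalized counts and the highest labelled TLR4-/- library 8501.

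Markers of other cell types moved with the label as well. Of 15 macrophage markers, 14 were higher and 1 (Marco) lower in labelled TLR4-/- cells with PBS (median log2 fold change 2.19). Over all tested genes, 23.2% were higher and 24% lower. Of 10 fibroblast markers, 1 was higher (Dcn) and 3 were lower (Pdgfra, Pdgfrb and Thy1). All 4 tested epithelial markers were higher (Cdh1, Krt8, Krt18 and Krt19), and 4 of 5 endothelial markers were lower (Cdh5, Emcn, Pecam1 and Tie1). The markers in brackets were named after their values were seen. Their part in the lower levels of the 6 genes was not tested. Neutrophils and hepatocytes are the cells best known for Lcn2 and for the acute-phase proteins, and their marker lists were at 0 in part. The neutrophil markers Ly6g, Elane and Ngp had at most 2, 1 and 2 reads in any library and S100a9 had 0, while S100a8 reached 373 reads, Camp 66 and Mpo 14. In WT cells 2 of the 3 tested neutrophil markers (S100a8 and Camp) rose with rmCIRP (summed level of all 10 markers 143 to 168 normalized counts with PBS and 315 to 364 with rmCIRP). Of the hepatocyte markers, albumin (Alb) had at most 2 reads in any library and transthyretin (Ttr) 0, while the apolipoprotein genes Apoa2 and Apob reached 26 and 17. Of these 2, the only hepatocyte markers tested, Apob was higher in labelled TLR4-/- cells with PBS (log2 fold change 1.42, SE 0.55, adjusted p = 0.0451) and Apoa2 had -0.10. Their part in the results was not tested either.

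The genes also varied together among replicate libraries that the labels do not distinguish. Each library's deviation was taken as its log2(normalized count + 1) minus the mean of its condition. In WT cells with PBS, library 1 was the lowest and library 2 was above the condition mean for all 6 genes, with mean deviations of -0.58 and 0.52. The same libraries deviated by -0.09 and 0.09 on average over the fibroblast markers, and by -0.09 and 0.05 over the macrophage markers. With rmTGF-β1, library 1 was high (0.42) and library 2 low (-0.36), and with rmCIRP library 2 was low (-0.32).

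**Figure D3:**
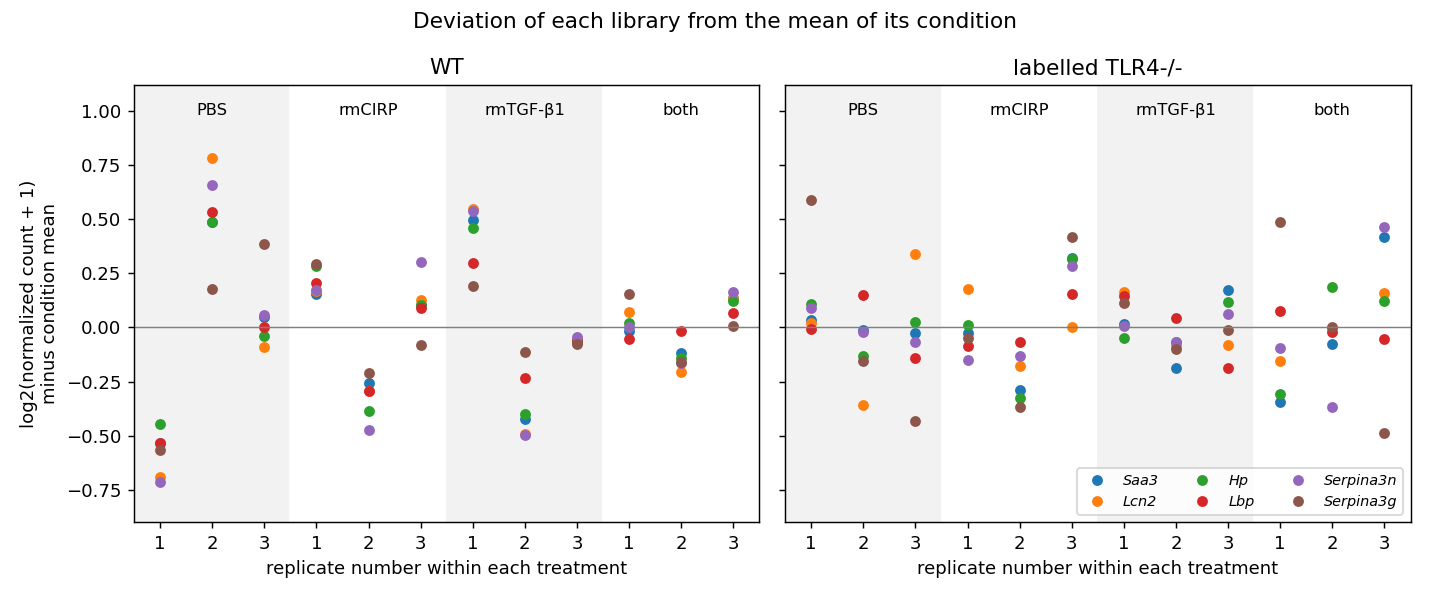
Deviation of each library from its condition mean, on the log2(normalized count + 1) scale, for the 6 tested genes (colours), by treatment and replicate number, in WT (left) and labelled TLR4-/- cells (right). In WT cells with PBS all 6 genes are low in library 1 (mean -0.58) and high in library 2 (mean 0.52).

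The SD of these deviations over the 12 WT libraries was 0.37 for Saa3, 0.48 for Lcn2, 0.37 for Hp, 0.33 for Lbp, 0.30 for Serpina3g and 0.49 for Serpina3n. The median over 12311 genes was 0.066, and the 6 genes stood between percentiles 98.7 and 99.7. Over the 12 labelled TLR4-/- libraries the SDs ranged from 0.14 to 0.41, against a median of 0.087. There the 6 genes stood between percentiles 73.8 (Lbp) and 98.4 (Serpina3g). Serpina3g had only 20 to 43 reads in each of these libraries, and the genes compared were not matched for level. Across the 24 libraries, the deviations of Saa3 were correlated with those of Serpina3n (Pearson r 0.92), Hp (0.92) and Lcn2 (0.81), less with Lbp (0.71) and least with Serpina3g (0.31). Without labelled TLR4-/- library 3 with both proteins, the SDs under that label were 0.14 to 0.38, against a median of 0.074, and r was 0.57 for Serpina3g and 0.80 to 0.96 for the other 4. These values share libraries and are given as a description.

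The pattern of Saa3 over all 24 libraries was most like that of Lcn2 among the 8 genes (Pearson r 0.98 of log2(normalized count + 1)). Among 12305 other genes, the most like Saa3 were Irak3 (0.988), Zfp36l1 (0.984), Mmp3 (0.975), Tnfrsf9 (0.972) and Ccl11 (0.970). The most like Lcn2 were Zfp36l1 (0.975), Irak3 (0.973), Tnfrsf9 (0.972), Mark1 (0.968) and Phlda1 (0.967). Irak3 encodes an inhibitor of Toll-like receptor signalling, Zfp36l1 a protein that destabilises mRNAs, Mmp3 a matrix metalloproteinase and Ccl11 the chemokine eotaxin. Saa3 and Lcn2 stand high in the 6 WT libraries with rmCIRP, and r over libraries that fall into such clusters is given as a description.

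Other acute-phase proteins, from a list of 36 genes of which 16 were tested, mostly rose with rmCIRP in WT cells: 10 were higher and 1 lower (median log2 fold change 0.60). Over all tested genes, 19.8% rose and 24.1% fell. Of the larger changes, Il1rn, the interleukin-1 receptor antagonist, rose by 2.99 (SE 0.15), and Ptx3, a long pentraxin, by 2.11 (SE 0.16). Cd14, the co-receptor for lipopolysaccharide, rose by 1.70 (SE 0.11), and the metallothionein Mt2 by 1.37 (SE 0.16). In cells labelled TLR4-/-, 0 of the 16 genes were called with rmCIRP, and the 4 named had values from -0.42 (Mt2) to 0.01 (Il1rn). The share called over all tested genes was also 0%. The difference in response was called for 8 of 16, all downwards, against 14.3% of all tested genes downwards and 17.1% upwards. The other 20 genes on the list, most of them made chiefly by the liver, had at most 11 reads in any library.

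**Figure D4:**
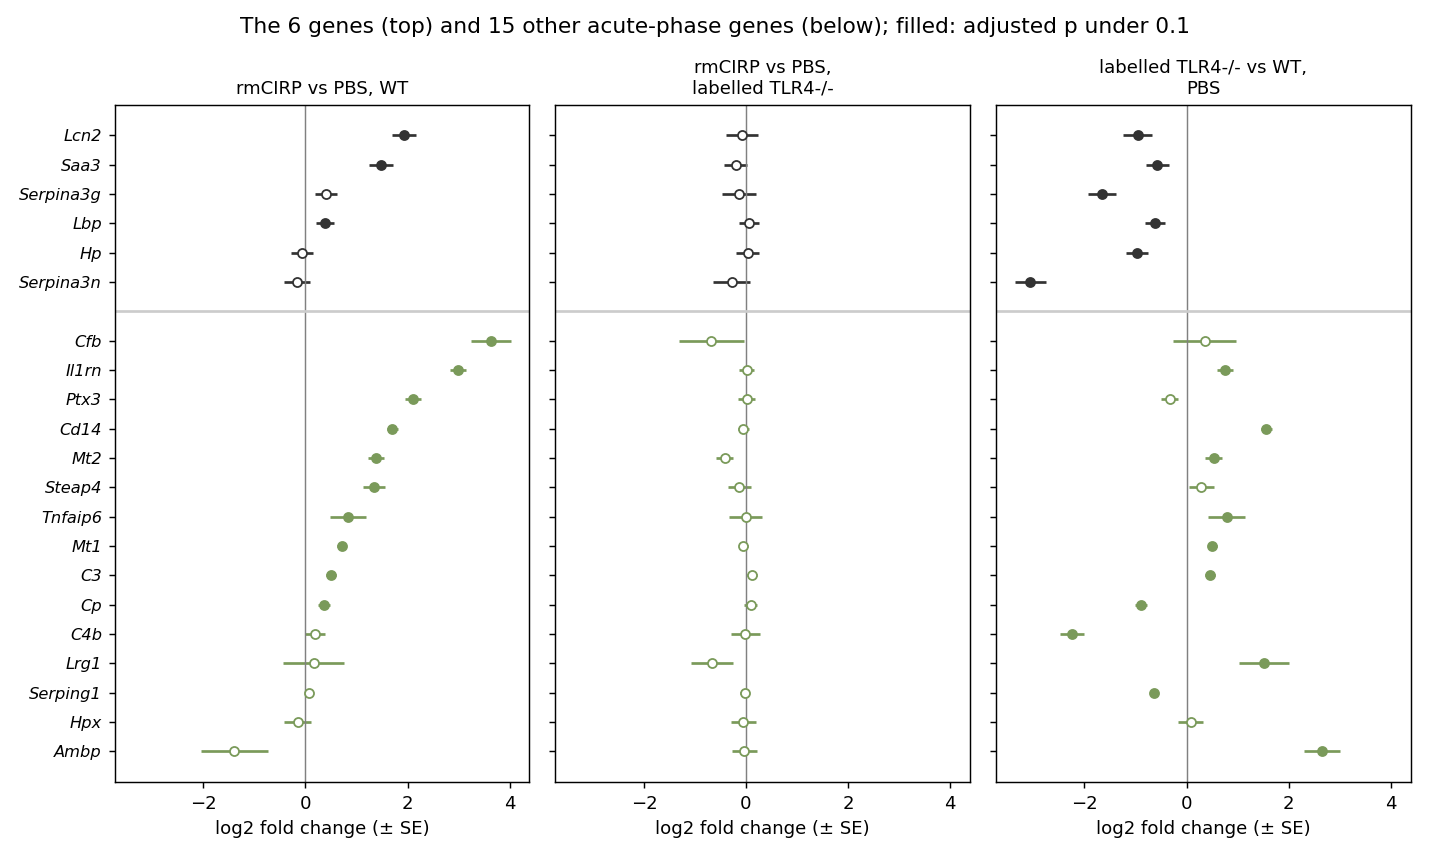
Log2 fold changes (points, ± SE) of the 6 tested genes (top) and 15 of the 16 other acute-phase genes (below) for rmCIRP against PBS in WT cells (left), in labelled TLR4-/- cells (middle), and for labelled TLR4-/- against WT cells with PBS (right); filled points passed an adjusted p under 0.1. In the left panel 3 of the 6 and 10 of the 15 genes are filled, in the middle panel none, and on the right the 6 genes all lie below 0 while the other 15 go both ways.

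Between the labels, these other acute-phase genes went in both directions. In labelled TLR4-/- cells with PBS 8 of 16 were higher and 4 lower (median 0.41), against 23.2% and 24% of all tested genes. The complement gene C4b and ceruloplasmin (Cp), a copper-carrying ferroxidase, were lower, with log2 fold changes of -2.24 (SE 0.24) and -0.90 (SE 0.12). Cd14 and Tnfaip6, a hyaluronan-binding protein, were higher, with 1.56 (SE 0.11) and 0.79 (SE 0.36). In WT cells rmTGF-β1 lowered Ptx3, by 1.39 on the log2 scale. Its mean was also lower with rmTGF-β1 in labelled TLR4-/- cells, at 238 normalized counts against 1279 with PBS. In WT cells it was 1742 with both proteins against 6929 with rmCIRP.

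Among 21 genes of interleukin-6, interleukin-1 and TNF signalling, all tested, 14 rose and 3 fell with rmCIRP in WT cells. The shares over all tested genes were 19.8% and 24.1%. The cytokines Il1b (9.87, SE 0.16), Il1a (7.53, SE 0.21), Tnf (4.91, SE 0.12) and Osm (2.34, SE 0.25) changed most. In cells labelled TLR4-/-, 0 of 21 were called with rmCIRP, and the share over all tested genes was also 0%. The response differed for 12 downwards and 1 upwards, against 14.3% and 17.1% of all tested genes. Il6, named after its values were seen, rose by 2.14 (SE 0.24) in WT cells. The cytokines Il1b (2.08, SE 0.29) and Osm (2.03, SE 0.25) were higher in labelled TLR4-/- cells with PBS. There 9 of the 21 genes were higher and 5 lower, against 23.2% and 24% of all tested genes. Of 14 tested genes on a list of acute-phase transcription factors and their regulators, 12 rose and 1 fell with rmCIRP in WT cells. Among those that rose were the NF-κB inhibitor Nfkbia (1.62, SE 0.10), Nfkb1 (1.45, SE 0.15) and Cebpd (1.35, SE 0.12), and Cebpa was the one that fell, by 1.19. In labelled TLR4-/- cells 0 of 14 were called with rmCIRP, and the response differed downwards for 11 and upwards for 1. With PBS, 8 of 14 were higher in labelled TLR4-/- cells, among them Cebpa (1.98), and 1 was lower. The shares over all tested genes are those given above for the same comparisons.

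Receptors and binding partners of these proteins moved in both directions. Of 14 tested, 6 rose and 4 fell with rmCIRP in WT cells, against 19.8% and 24.1% of all tested genes. Fpr2, a formyl peptide receptor that binds serum amyloid A, rose by 2.29 (SE 0.13), and Tlr2 by 1.62 (SE 0.10). Mmp9, the gelatinase that Lcn2 binds, rose by 1.09 (SE 0.10). The Lcn2 receptors Lrp2 and Slc22a17, which were chosen after their values were seen, fell, from means of 210.1 to 106 and of 362 to 282 normalized counts with PBS and with rmCIRP. With PBS, 10 of the 14 were higher and 1 lower in labelled TLR4-/- cells, against 23.2% and 24% of all tested genes. With rmCIRP 0 of the 14 were called in those cells, and 0% of all tested genes. The difference in response was called for 6 downwards and 3 upwards, against 14.3% and 17.1% of all tested genes.

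Most relatives of the genes were too low to be tested. Of 22 other lipocalin family genes 4 were tested, and 0 of them were called with rmCIRP in WT cells. Of all tested genes, 19.8% rose and 24.1% fell there. With PBS, Ambp was higher and Apod lower in labelled TLR4-/- cells, both named after their values were seen. Of 9 other genes of the Serpina3 cluster 3 were tested. Among them 1, Serpina3f, rose with rmCIRP in WT cells (1.76, SE 0.30) and was lower in labelled TLR4-/- cells with PBS (-1.81, SE 0.48). Serpina3f was named after its values were seen, had a mean of 15.7 normalized counts, and shares 50-base stretches with Serpina3g (6.29% of those in Serpina3g exons). Serpina3g shares more with Serpina3h (8.89%) and Serpina3i (6.84%), both named for this sharing. In WT cells their means were 43.7 and 16.6 normalized counts with rmTGF-β1, and 69.3 and 26.1 with both proteins. The mean of Serpina3f went from 1.57 to 31.0 in the same comparison. There 2 of the 3 tested cluster genes were called higher, against 20.5% of all tested genes. Reads of shared stretches may be missing from these genes or confused between them.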

How the data were processed

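Total RNA libraries (TruSeq Stranded kit, NextSeq) were aligned by the authors with STAR2 to the mouse GENCODE reference, per the study's methods. The deposited files hold raw counts of reads per gene name, not normalized. The submitters' processing notes name FastQC, HTSeq and the build NCBIM37. Tool versions, the release of the annotation and whether counting used strand are not given in the sources used here. The 5 tally lines of unassigned reads (14.5% to 16.1% of tallied reads) were left out.

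Counts were tested in R 4.3.3 with edgeR 4.0.16: filterByExpr, TMM scaling, 1 model with a mean per condition over all 24 libraries, quasi-likelihood F-tests of 12 comparisons, and Benjamini-Hochberg adjustment over the 16258 genes tested, called below 0.1. The study's own tool, DESeq2 (1.42.0), was an alternative. SEs are the log2 fold change over the root of F. Normalized counts are counts divided by DESeq2 size factors. Likeness used log2(normalized count + 1). The scripts were tested on simulated data. Counting error was not estimated and weighs most on genes with few reads, above all Saa1, Saa2 and Serpina3g. Lcn2 and Lbp also had few reads under the TLR4-/- label, down to 74 and 145 in a library.

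The 8 genes and the gene lists were chosen with earlier results of these data known. Named are the 8 genes, Tlr4, up to 4 called genes per list and comparison with the largest change (mean normalized count 50 or more), and the 5 genes most like Saa3 and Lcn2; other names are marked. A few genes that the rule would name are not reported here. Same-numbered libraries of different conditions mostly did not deviate together (mean correlation 0.0052 over 51 pairs, 2 of them over 0.1), so numbers were not used as a block. The 2 pairs over 0.1 were both of labelled TLR4-/- libraries, with rmTGF-β1 against both proteins. They had correlations of 0.16 for replicate 1 and 0.35 for replicate 3. Exon lengths, overlaps and shared stretches came from GENCODE M21, where 53292 names matched and no other gene overlapped the 8; upstream windows came from a RefSeq table of GRCm38.p6, a later build than the notes name, with 6 of 8 genes matched.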

Additional observations from a re-analysis of the deposited data

Results flagged for a closer look

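Saa3 and Lcn2 are given again here because their responses to rmCIRP differed between labelled TLR4-/- and WT cells when that difference was tested directly (edgeR quasi-likelihood test of the interaction). As labelled TLR4-/- minus WT, the log2 difference was -1.68 for Saa3 (SE 0.32, adjusted p = 0.000478) and -2.01 for Lcn2 (SE 0.39, adjusted p = 0.000597). Tlr4 mRNA itself was not lower under the label TLR4-/-.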

How the results depend on the processing

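Of 72 gene tests, 15 passed the threshold, and 13 of these did so in every fit that kept all libraries; the exceptions were Lbp with rmCIRP in WT cells (adjusted p = 0.134 in a fit to only the libraries compared) and Lcn2 when rmTGF-β1 was added to rmCIRP (0.169 in DESeq2). With the replicate number as a block, 71 of 72 tests kept direction and call and 1 reversed, Hp for rmTGF-β1 added to rmCIRP in WT cells, from -0.00079 to 0.0025; that value, next to 0, also reversed with RLE scaling (0.0028), no filter on low counts (0.0073), a mean count of at least 10 (0.0070), only the libraries compared (0.0042) and DESeq2 (0.0018). Without a filter on low counts, 5 genes were called for rmCIRP in WT cells, 4 for rmTGF-β1 in WT cells, 7 (Saa1 among them) for rmCIRP added and 2 for rmTGF-β1 added there, and in labelled TLR4-/- cells 2 for rmCIRP, 4 for rmTGF-β1, 3 for rmCIRP added and 2 for rmTGF-β1 added; the interaction in WT cells gave 1, and the difference in the rmTGF-β1 response of Serpina3n reversed, to -0.017. In that fit edgeR's prior degrees of freedom went from 5.74 to infinite and the SE of Saa3 for rmCIRP in WT cells from 0.228 to 0.0454, so that these genes' own spread no longer entered. With only the libraries compared, 2 genes were called for rmTGF-β1 added to rmCIRP in WT cells (Saa3 and Lcn2) and 4 for rmTGF-β1 in labelled TLR4-/- cells, and Lbp passed for rmCIRP added to rmTGF-β1 in WT cells (0.36, adjusted p = 0.0128); the cause was not tested. DESeq2 called 0 for rmTGF-β1 added to rmCIRP in WT cells. Leaving out 1 library gave 0 to 2 calls for rmTGF-β1 in WT cells, 0 to 1 for rmTGF-β1 added to rmCIRP there, 3 to 6 between the labels with PBS, and 2 to 3 for rmCIRP in WT cells.

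Log2 values that changed sign when 1 library was left out were all from tests without a call. For rmCIRP against PBS in labelled TLR4-/- cells they spanned -0.14 to 0.18 for Hp, -0.013 to 0.14 for Lbp, -0.23 to 0.11 for Lcn2 and -0.37 to 0.24 for Serpina3g. For rmTGF-β1 added to rmCIRP in labelled TLR4-/- cells they spanned -0.24 to 0.063 for Hp, -0.074 to 0.33 for Saa3 and -0.047 to 0.46 for Serpina3g. For rmCIRP against PBS in WT cells they spanned -0.25 to 0.22 for Hp and -0.44 to 0.22 for Serpina3n. For rmTGF-β1 added to rmCIRP in WT cells they spanned -0.16 to 0.14 for Hp and -0.093 to 0.26 for Serpina3n. For rmTGF-β1 against PBS in WT cells they spanned -0.53 to 0.026 for Hp, -0.38 to 0.16 for Lbp and -0.59 to 0.12 for Serpina3n. For the interaction of both proteins in WT cells they spanned -0.016 to 0.52 for Hp, -0.35 to 0.18 for Lbp, -0.54 to 0.26 for Lcn2, -0.18 to 0.38 for Saa3 and -0.015 to 0.68 for Serpina3n. For the difference between labels in the rmCIRP response they spanned -0.19 to 0.28 for Hp and -0.51 to 0.15 for Serpina3n. For the difference between labels in the rmTGF-β1 response they spanned -0.34 to 0.21 for Hp, -0.27 to 0.27 for Lbp, -0.46 to 0.36 for Lcn2, -0.35 to 0.22 for Saa3 and -0.37 to 0.34 for Serpina3n. For rmCIRP added to rmTGF-β1 in labelled TLR4-/- cells they spanned -0.16 to 0.016 for Lbp. For rmCIRP added to rmTGF-β1 in WT cells they spanned -0.018 to 0.51 for Serpina3n.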

Other observations

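Within conditions, the deviations of Saa3 from its condition mean were most like those of Sod2 (Pearson r 0.95 over 24 libraries), Abi3bp (0.92) and Ms4a6d (0.91), where the median r over all genes was 0.045. For Serpina3n the highest values were those of Cpxm1 (0.95) and Mgp (0.95), and for Lbp that of Fst (0.91). Sod2 encodes the mitochondrial superoxide dismutase and Mgp matrix Gla protein. Without labelled TLR4-/- library 3 with both proteins, these values of r were 0.90 to 0.97. These genes were ranked after their values were seen, and nothing in the labels separates the libraries concerned.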
